A study of Mus musculus with 24 samples.

Results

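The mitochondrial ribosomal protein genes were taken from expression arrays of blood-forming cells as every gene whose single array symbol was Mrpl or Mrps followed by a digit. This rule, which used no measured value, found 76 genes of 18194 genes with 1 symbol on the array, 47 of the large subunit by symbol (Mrpl) and 29 of the small subunit (Mrps). Each RNA preparation came from 35000 to 100000 cells sorted out of bone marrow; the mice were of strain 129ola and 8 to 12 weeks old. Dnmt1-/chip mice, called hypomorphs here, carry a null allele of the maintenance DNA methyltransferase gene Dnmt1 and, as their other copy, the chip allele of reduced function, and Dnmt1+/+ mice are the wildtype. Haematopoietic stem cells (HSC) gave 3 hypomorph and 2 wildtype arrays, myeloid progenitors (MP) 3 of each genotype, and B cell progenitors 2 wildtype arrays. Nothing in the labels ties each array to its own animal, and the spread behind every p-value may therefore be technical.

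Mitochondria hold their own ribosome, which translates the few proteins encoded by mitochondrial DNA, all of them subunits of the respiratory chain and the ATP synthase. Its RNA comes from mitochondrial DNA, but all its proteins are encoded in the nucleus, made in the cytosol and imported. Some of these proteins descend from the bacterial ribosome and others are found only in mitochondria. Blood stem cells are known for relying little on respiration while at rest, and their progeny for relying on it more. Symbols do not always match the subunit: structures of the mammalian particle place the products of Mrps30 and Mrps18a in the large subunit, and Mrps36 is known as a component of the 2-oxoglutarate dehydrogenase complex. They were kept under their symbols.

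All values are on the log2 scale of array intensity. The median of each array lay between 4.56 and 4.74, and with 2 or 3 arrays a group all estimates are of limited precision. A gene is called when the Benjamini-Hochberg adjusted p of limma's test over 12745 genes was under 0.05. All 76 members passed the filter on dim genes (at least 2 arrays at or above 4.64). Dnmt1 checked the labels: it lay between 8.01 and 9.31 on the 6 hypomorph arrays and between 11.30 and 12.40 on the 7 wildtype arrays. The marker lists of the sorted types were highest in their own cells. The HSC list averaged 9.90 in wildtype and 9.29 in hypomorph HSC against 4.75 in B progenitors, the MP list 12.71 to 12.82 in MP against 5.34 in B progenitors, and the B progenitor list 11.19 in B progenitors against at most 5.15 elsewhere. In such bulk samples, fewer cells of a type and less RNA per cell cannot be told apart.

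Promoters were looked at first, because the products of these genes are needed together. RefSeq's GRCm38.p6 promoter sequences, 250 bases before to 50 bases after a start, matched 67 of the 76 members, with 73 promoters. Motifs of 4 factor families were searched by exact letters on both strands: CCGGAAG for ETS factors, the family of Gabpa, a known regulator of mitochondrial genes; GCGCATGCG for NRF1, the nuclear respiratory factor; the E-box CACGTG, bound by Myc; and AAGATGGC for YY1. The letters of the 4 motifs do not contain one another, and overlapping matches were counted separately. The 7 stretches below run from 120 bases before to 30 bases after a start, 5′ to 3′ on the gene's strand, with any of these motifs in capitals. Mrpl18, Mrpl9 and Mrpl23 are shown because they differed between the genotypes, Mrpl33 and Mrps27 because they were low in B progenitors, Mrps18a because it was called in no comparison, and Mrpl22 because it holds both an ETS and an NRF1 motif.
Mrpl18, chr17:12916062-12916211, minus strand: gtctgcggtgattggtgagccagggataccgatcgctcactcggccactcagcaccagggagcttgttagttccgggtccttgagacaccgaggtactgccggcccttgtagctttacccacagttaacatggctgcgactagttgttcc
Mrpl9, chr3:94443216-94443365, plus strand: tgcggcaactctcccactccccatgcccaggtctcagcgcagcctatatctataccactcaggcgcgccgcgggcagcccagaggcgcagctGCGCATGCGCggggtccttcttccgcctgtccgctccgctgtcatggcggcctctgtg
Mrpl23, chr7:142532912-142533061, plus strand: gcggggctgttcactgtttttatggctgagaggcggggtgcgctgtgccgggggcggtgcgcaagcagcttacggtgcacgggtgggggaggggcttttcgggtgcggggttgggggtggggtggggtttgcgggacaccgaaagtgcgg
Mrpl33, chr5:31613831-31613980, plus strand: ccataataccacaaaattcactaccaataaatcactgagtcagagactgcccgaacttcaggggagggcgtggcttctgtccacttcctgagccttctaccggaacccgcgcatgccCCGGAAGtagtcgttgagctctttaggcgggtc
Mrps27, chr13:99344666-99344815, plus strand: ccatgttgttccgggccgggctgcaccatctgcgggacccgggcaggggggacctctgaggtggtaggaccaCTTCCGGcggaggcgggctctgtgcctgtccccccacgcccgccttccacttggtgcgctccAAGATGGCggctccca
Mrps18a, chr17:46110884-46111033, plus strand: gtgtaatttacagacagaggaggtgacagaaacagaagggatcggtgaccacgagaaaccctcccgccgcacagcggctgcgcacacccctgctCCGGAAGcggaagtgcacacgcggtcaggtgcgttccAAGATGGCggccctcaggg
Mrpl22, chr11:58171544-58171693, plus strand: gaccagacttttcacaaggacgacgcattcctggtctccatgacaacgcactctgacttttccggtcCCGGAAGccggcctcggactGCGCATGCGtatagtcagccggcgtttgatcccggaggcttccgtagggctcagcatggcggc

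The ETS motif was in 25 of the 73 member promoters (34.2%), against 16.4% of 13162 promoters of the genes tested and 8.86% of all 32851 promoters. The YY1 motif was in 12 (16.4%), against 4.17% and 2.75%. The NRF1 motif was in 7 (9.59%), against 3.32% and 1.75%. The E-box was in 7 (9.59%), close to the 9.67% of the genes tested. At least 1 of the 4 motifs was in 56.2% of the member promoters and in 29.4% of those of the genes tested. Of the large subunit promoters 30.4% held the ETS motif, and of the small subunit promoters 40.7%. Cytosolic ribosomal protein genes held the ETS motif in 44.4% of their promoters and the YY1 motif in 6.67%. Within the stretches, the YY1 motif of Mrps18a and of Mrps27 lies just after the start, at bases 12 and 15, and reads on the gene's strand. The ETS motif of Mrpl33 begins at base -3 and runs across the start, that of Mrps18a begins at base -26, and that of Mrps27, at base -48, reads on the other strand. The Mrpl9 stretch holds an NRF1 match on each strand, the pair overlapping at bases -28 and -27. The stretches of Mrpl18 and Mrpl23 hold none of the 4. The Mrpl18 promoter does hold an ETS match outside its stretch, at base -240. These matches describe letters in a window and not binding.

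**Figure D1:**
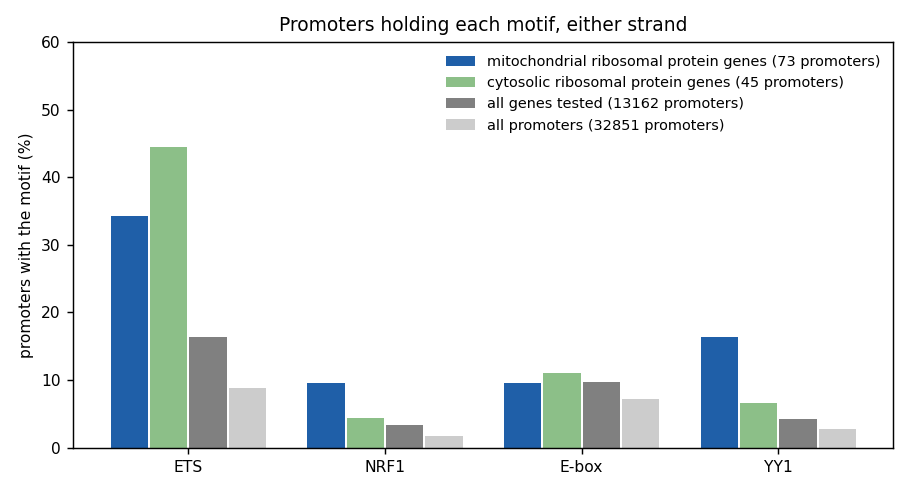
Share of promoters (percent, y axis from 0) that hold each motif on either strand, for the mitochondrial ribosomal protein genes, the cytosolic ribosomal protein genes, all genes tested and all promoters. The members stand at 34.2% for ETS and 16.4% for YY1, above all genes tested, and at 9.59% for the E-box, level with them.

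The mean over the 76 members, taken as a summary of each array on the deposited scale, was close in HSC of both genotypes and in wildtype MP, highest in hypomorph MP and lowest in B progenitors. It was 9.32 ± 0.098 (SD, n = 3) in hypomorph HSC, 9.31 ± 0.10 (SD, n = 2) in wildtype HSC and 9.33 ± 0.26 (SD, n = 3) in wildtype MP. Hypomorph MP averaged 9.59 ± 0.16 (SD, n = 3) and B progenitors 8.77 ± 0.27 (SD, n = 2). The single arrays of B progenitors, 8.58 and 8.95, lay below each of the other 11 arrays, which ran from 9.11 to 9.69. The mean over all genes tested separated in the same way. It was 7.24 and 7.40 on the B progenitor arrays and 7.48 to 7.70 on the other 11. For the members, the wildtype MP arrays, at 9.11, 9.62 and 9.26, reached into the range of hypomorph MP, 9.41 to 9.69. The members were lowest on average in B progenitors in 54 of 76 cases (71.1%, against 41.3% of all genes tested) and highest in hypomorph MP in 37 (48.7%, against 14.0%). None was lowest in hypomorph MP, where 15.2% of all genes tested were lowest.

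Large and small subunit genes moved together from array to array. The mean of the Mrpl genes minus that of the Mrps genes stayed between 0.25 and 0.33 on the 11 HSC and MP arrays, and was 0.47 and 0.38 on the B progenitor arrays. The size of this offset depends on the probes, so it was compared only between arrays. In B progenitors the Mrps mean therefore lay further below its value elsewhere than the Mrpl mean did. It was 8.50 ± 0.30 (SD, n = 2) against 9.14 ± 0.088 in wildtype HSC (SD, n = 2) for Mrps, and 8.93 ± 0.24 against 9.41 ± 0.11 for Mrpl. The median log2 differences from wildtype MP went the other way, at -0.54 for Mrpl and -0.49 for Mrps. The difference between the subunits was not tested.

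**Figure D2:**
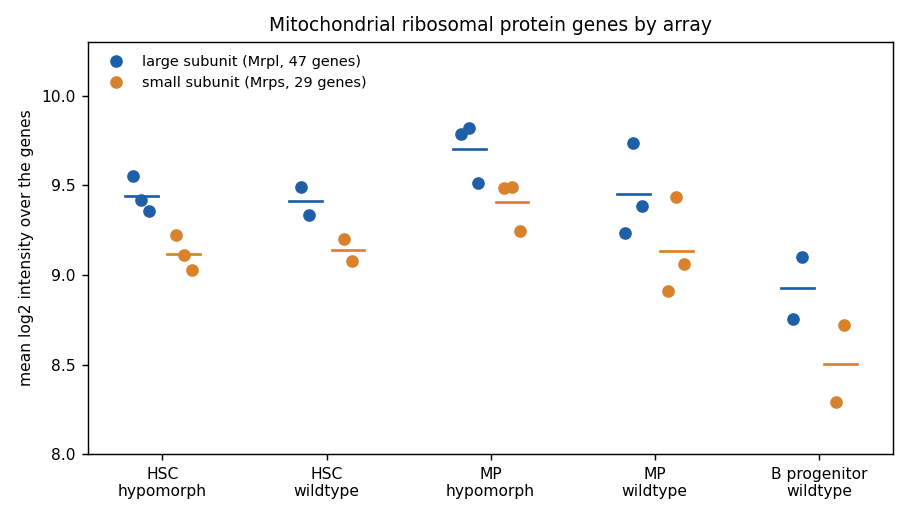
Mean log2 intensity (y axis) of the 47 Mrpl and of the 29 Mrps genes on each array, by group (x axis); points are arrays and lines are group means. Both subunits were lowest on the 2 B progenitor arrays, and wildtype MP spread from 9.23 to 9.74 for Mrpl.

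In HSC, Dnmt1 hypomorphs and wildtype were compared to see what reduced Dnmt1 did to these genes, and few changed. Of the 76 members 2 rose (Mrpl18 and Mrpl9) and 1 fell (Mrpl23), where 5.37% of all genes tested rose, 5.41% fell and 10.8% were called in all. With arrays centred on their medians 4 rose and 1 fell, where 6.78% of all genes tested rose and 4.44% fell. Mrpl18, Mrpl9 and Mrpl23 all encode proteins of the large subunit with bacterial counterparts. The median log2 difference of the members was -0.03, with 35 of 76 positive, and that of all genes tested was -0.11. The members' median turned to 0.04 with centring and to 0.01 with the replicate number as a block. In 8 members (10.5%) all hypomorph HSC arrays lay above both wildtype ones, against 13.2% of all genes tested. In 18 (23.7%) they lay below, against 22.4%.

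Mrpl18, a protein of the central protuberance of the large subunit, measured 10.77, 10.10 and 9.49 on the hypomorph HSC arrays and 8.86 and 8.44 on the wildtype ones. The groups did not overlap, and wildtype HSC were the only low group, since all MP and B progenitor arrays lay between 9.81 and 10.45. Its log2 difference was 1.46 (SE 0.31, limma adjusted p = 0.0103), a 2.76-fold level. Mrpl9 measured 9.10, 9.58 and 10.05 in hypomorph and 9.02 and 7.73 in wildtype HSC. The groups did not overlap, but the lowest hypomorph array and the highest wildtype array nearly met. Its log2 difference was 1.20 (SE 0.34, adjusted p = 0.0394), and its 2 further probe sets gave -0.08 and 0.47, neither of them called. The mean of its probe sets gave 0.53 (adjusted p = 0.0924). Mrpl23, a protein near the exit of the nascent chain, measured 10.07, 10.03 and 10.21 in hypomorph and 11.10 and 10.99 in wildtype HSC. The arrays within each group lay close together and the groups did not overlap. Its log2 difference was -0.94 (SE 0.25, adjusted p = 0.0266). RefSeq places Mrpl23 beside Nctc1 and H19, genes of an imprinted region.

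Mrpl50, found only in mitochondria, had the largest difference of all members in HSC, 1.48 (SE 0.46), but missed the threshold (adjusted p = 0.0539). Its hypomorph arrays stood at 8.96, 8.86 and 8.14 and its wildtype arrays at 8.17 and 6.18, so the groups overlapped. This member was singled out after its values were seen. The calls moved most with wildtype HSC array 2. Without it none of the 76 members was called, and Mrpl18 stood at 1.25 (adjusted p = 0.122), Mrpl9 at 0.56 (0.464) and Mrpl23 at -0.99 (0.121). Without hypomorph HSC array 2 only 1 member was called. Mrpl9 was also lost without hypomorph HSC array 3 (0.97) and hypomorph array 2 (1.20), and Mrpl23 without hypomorph array 2 (-0.90) and wildtype array 1 (-0.89). With the replicate block the calls of Mrpl9 (limma adjusted p = 0.0943) and Mrpl23 (0.0607) were lost, and without the filter that of Mrpl9 (0.0525). With only the arrays compared all 3 were lost, Mrpl18 at 0.129, Mrpl9 at 0.225 and Mrpl23 at 0.102. Marker lists also moved with genotype in HSC. The 7 genes of the MP list averaged 9.08 to 9.39 on hypomorph and 7.80 to 8.58 on wildtype HSC arrays, the 5 erythroid genes 6.74 to 6.98 against 5.99 to 6.03, and the 8 genes of the HSC list 8.94 to 9.48 against 9.80 to 9.99. Their part in the values of the members was not tested.

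In MP, 59 of the 76 members were higher in the hypomorph than in the wildtype on average, but none passed the test, where 0.588% of all genes tested did (0.337% higher and 0.251% lower). Their median log2 difference was 0.25, against -0.02 for all genes tested, of which 47.8% were positive. At an unadjusted limma p under 0.05, 17 members (22.4%) were higher and 0 lower, where 5.77% of all genes tested were higher and 9.22% lower. The median log2 difference was 0.23 for Mrpl and 0.29 for Mrps. In 13 members (17.1%) all hypomorph MP arrays lay above all wildtype ones, against 11.3% of all genes tested, and in 3 (3.95%) they lay below, against 16.3%.

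The members with the smallest p were Mrps28, Mrpl52 and Mrpl44. Mrps28, of the small subunit, measured 9.86, 9.90 and 9.38 in hypomorph and 8.82, 9.46 and 8.96 in wildtype MP, a log2 difference of 0.63 (SE 0.21, adjusted p = 0.212). Mrpl52, found only in mitochondria, measured 11.21, 11.57 and 10.99 against 9.74, 10.93 and 10.17, a difference of 0.97 (SE 0.32, adjusted p = 0.215). Mrpl44, which has the fold of an RNA-cutting enzyme, measured 11.28, 11.20 and 11.13 against 10.50, 10.91 and 10.55, a difference of 0.55 (SE 0.18, adjusted p = 0.22). The highest wildtype array was array 2 in each of the 3, and it reached into the hypomorph range only for Mrps28. Without wildtype MP array 2 the median difference of the members was 0.44 and 1 member, Mrpl57, was called (1.07, adjusted p = 0.048). Without wildtype MP array 1 the median was 0.12.

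Other measures moved with genotype in MP. The 3′ minus 5′ signal of the Actb control probe sets, which grows as RNA breaks down or is copied in part, was 3.60 to 4.02 in hypomorph MP and 2.97 to 3.10 in wildtype MP. For Gapdh it was 3.42 to 3.89 against 2.82 to 3.43, with wildtype array 2 the lowest. The 6 markers of mature neutrophils averaged 7.05 to 8.35 in hypomorph and 6.33 to 6.73 in wildtype MP. The 3 macrophage markers tested averaged 6.20 to 6.39 against 5.69 to 5.76, and the 2 tested of T and NK cells 5.73 to 5.88 against 4.97 to 5.34. The HSC list was lower in hypomorph MP, at 6.756 to 7.207 against 7.208 to 7.982. The MP list averaged 12.79 to 12.84 against 12.68 to 12.75, and the B progenitor list 4.87 to 4.97 against 4.63 to 4.86. The lists of erythroid, megakaryocyte and stromal genes overlapped between the genotypes. The part of these in the members' values was not tested.

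The genotype effect was then compared between HSC and MP in the same model. It differed for Mrpl18 and Mrpl23, where 3.27% of all genes tested were called higher, 2.35% lower and 5.63% in all. With arrays centred on their medians 2 members were higher and 1 lower, where 3.99% of all genes tested were higher and 2.47% lower. Mrpl18 rose in hypomorph HSC. In MP its difference was -0.08 (adjusted p = 0.917), and it measured 10.11, 10.22 and 9.96 in hypomorph and 10.10, 10.23 and 10.20 in wildtype. The difference of the effects, HSC minus MP, was 1.54 (SE 0.42, adjusted p = 0.0489). Mrpl23 fell in hypomorph HSC, while in MP its hypomorph arrays measured 10.54, 10.53 and 10.06 and its wildtype arrays 9.50, 10.20 and 9.72. Its difference of the effects was -1.51 (SE 0.33, adjusted p = 0.0199). The median over the members was -0.27, against -0.09 for all genes tested. The call of Mrpl18 was lost in 9 of 11 cases when 1 array was left out (adjusted p from 0.0576 to 0.174) and that of Mrpl23 in 6 (0.0538 to 0.0641). The number of members called ran from 0 to 10, the highest without wildtype MP array 2 and next, at 8, without hypomorph HSC array 3.

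**Figure D3:**
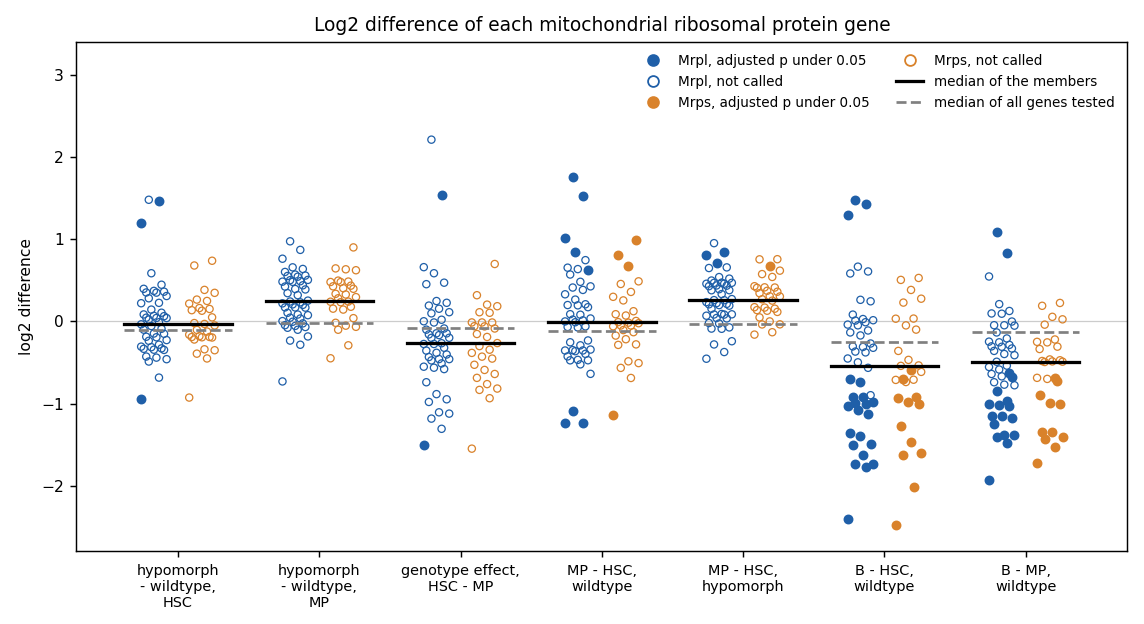
Log2 difference (y axis) of each of the 76 members in the 7 comparisons (x axis); filled points passed an adjusted p under 0.05, the black line is the members' median and the dashed line that of all genes tested. In hypomorph MP most points lie above 0 without being called, and in both comparisons of B progenitors filled points lie mostly below 0.

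Between wildtype MP and wildtype HSC, 8 members were higher in MP and 4 lower, where 13.8% of all genes tested were higher, 18.0% lower and 31.8% called in all. The members' median was -0.01, and that of all genes tested -0.12. Higher in MP were Mrpl50 (1.76, SE 0.46), Mrpl18 (1.52, SE 0.31), Mrpl1 (1.02, SE 0.33), a protein of a flexible stalk of the large subunit, Mrps15 (0.99, SE 0.21), Mrpl42 (0.85), Mrps2 (0.81), Mrps28 (0.68) and Mrpl51 (0.62). Lower in MP were Mrpl52 (-1.24, SE 0.36), Mrpl23 (-1.24, SE 0.25), Mrps16 (-1.14, SE 0.36) and Mrpl14 (-1.09, SE 0.30). Mrps15, which binds the small subunit's RNA, was at 9.43 on both wildtype HSC arrays and at 10.17, 10.61 and 10.49 on the wildtype MP arrays, with no overlap and an adjusted p of 0.0032. Mrpl50 rested on wildtype HSC array 2, without which it was 0.76 (adjusted p = 0.187), as did Mrpl1 with 0.51 (0.345) and Mrpl42 with 0.66 (0.13). With the mean of the probe sets Mrpl42 was 0.23 (adjusted p = 0.326) and Mrpl1 0.42 (0.0706). With 1 array left out, the calls of Mrpl52 and Mrps16 were lost in 4 of 5 cases each, and those of Mrpl14 and Mrpl1 in 3. Without that array 4 members were called, without wildtype MP array 1 there were 7, without array 3 there were 5, and without array 2 there were 15.

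Between hypomorph MP and hypomorph HSC, 4 members were higher in MP and 0 lower by limma's adjusted p, where 4.18% of all genes tested were higher, 7.47% lower and 11.7% called in all. At an unadjusted p under 0.05, 18 (23.7%) were higher and 0 lower, where 8.50% of all genes tested were higher and 14.3% lower. The 4 members called were Mrpl36 (0.84, SE 0.25, adjusted p = 0.0395), Mrpl22 (0.81, SE 0.20, 0.0172), Mrpl51 (0.71, SE 0.19, 0.0297) and Mrps15 (0.67, SE 0.19, 0.0345). Mrpl22, which lines the tunnel of the growing chain, measured 10.81, 11.09 and 10.74 in MP and 10.05, 9.83 and 10.33 in HSC. The groups did not overlap. Across all members 62 of 76 were higher in MP, with a median of 0.26, against -0.03 for all genes tested. The count was 10 without hypomorph HSC array 3, which had the highest Actb value of all arrays (5.07), and 0 without hypomorph HSC array 2 or hypomorph MP array 2. It was 1 or 2 without any of the other 3 arrays. With 1 array left out, the calls of Mrpl36 and Mrps15 were lost in 5 of 6 cases each, that of Mrpl51 in 4 and that of Mrpl22 in 2. A further probe set of Mrpl51 gave -0.18, and the mean of its probe sets 0.20 (adjusted p = 0.422). This comparison and the genotype comparisons share arrays, so their values are not independent of each other.

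B progenitors had the lowest levels. Against wildtype HSC 31 members were lower in B progenitors and 3 higher, where 30.2% of all genes tested were lower, 14.8% higher and 45.0% called in all. The median of the members was -0.54, and that of all genes tested -0.25. Against wildtype MP 27 members were lower and 2 higher, where 24.7% of all genes tested were lower, 11.2% higher and 35.9% called in all. That median was -0.49, and that of all genes tested -0.13. The same B progenitor arrays entered both comparisons, and 22 members were lower in both. On 33 members (43.4%, against 22.3% of all genes tested) both B progenitor arrays lay below all other 11 arrays, and on 1 (1.32%, against 11.3%) they lay above.

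The counts and medians depend on how arrays are scaled. With every array centred on its median over the genes tested, the median of all genes shifted to 0.22 against HSC and 0.28 against MP. Of the members 12 were then higher and 13 lower against HSC, where 26.3% of all genes tested were higher and 19.5% lower. Against MP 4 were higher and 16 lower, where 24.2% of all genes tested were higher and 15.9% lower. The members' median then was -0.07 against HSC and -0.08 against MP. Its distance below that of all genes, 0.29 against HSC and 0.36 against MP, is the same under either scaling by arithmetic. Centring shifts all genes of an array alike, so this sameness is no check of the scaling. Without B progenitor array 1, the lower of the pair, 15 members were lower and 4 higher against HSC, and 14 lower and 1 higher against MP. Without array 2 the median against MP was -0.73. The 3′ minus 5′ values of the B arrays, 3.12 and 3.46 for Actb and 3.74 and 4.04 for Gapdh, lay above those of all wildtype MP arrays (2.97 to 3.10 and 2.82 to 3.43). On the wildtype HSC arrays they were 2.93 and 3.93 for Actb and 3.75 and 4.34 for Gapdh. Their part in the members' values was not tested.

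**Figure D4:**
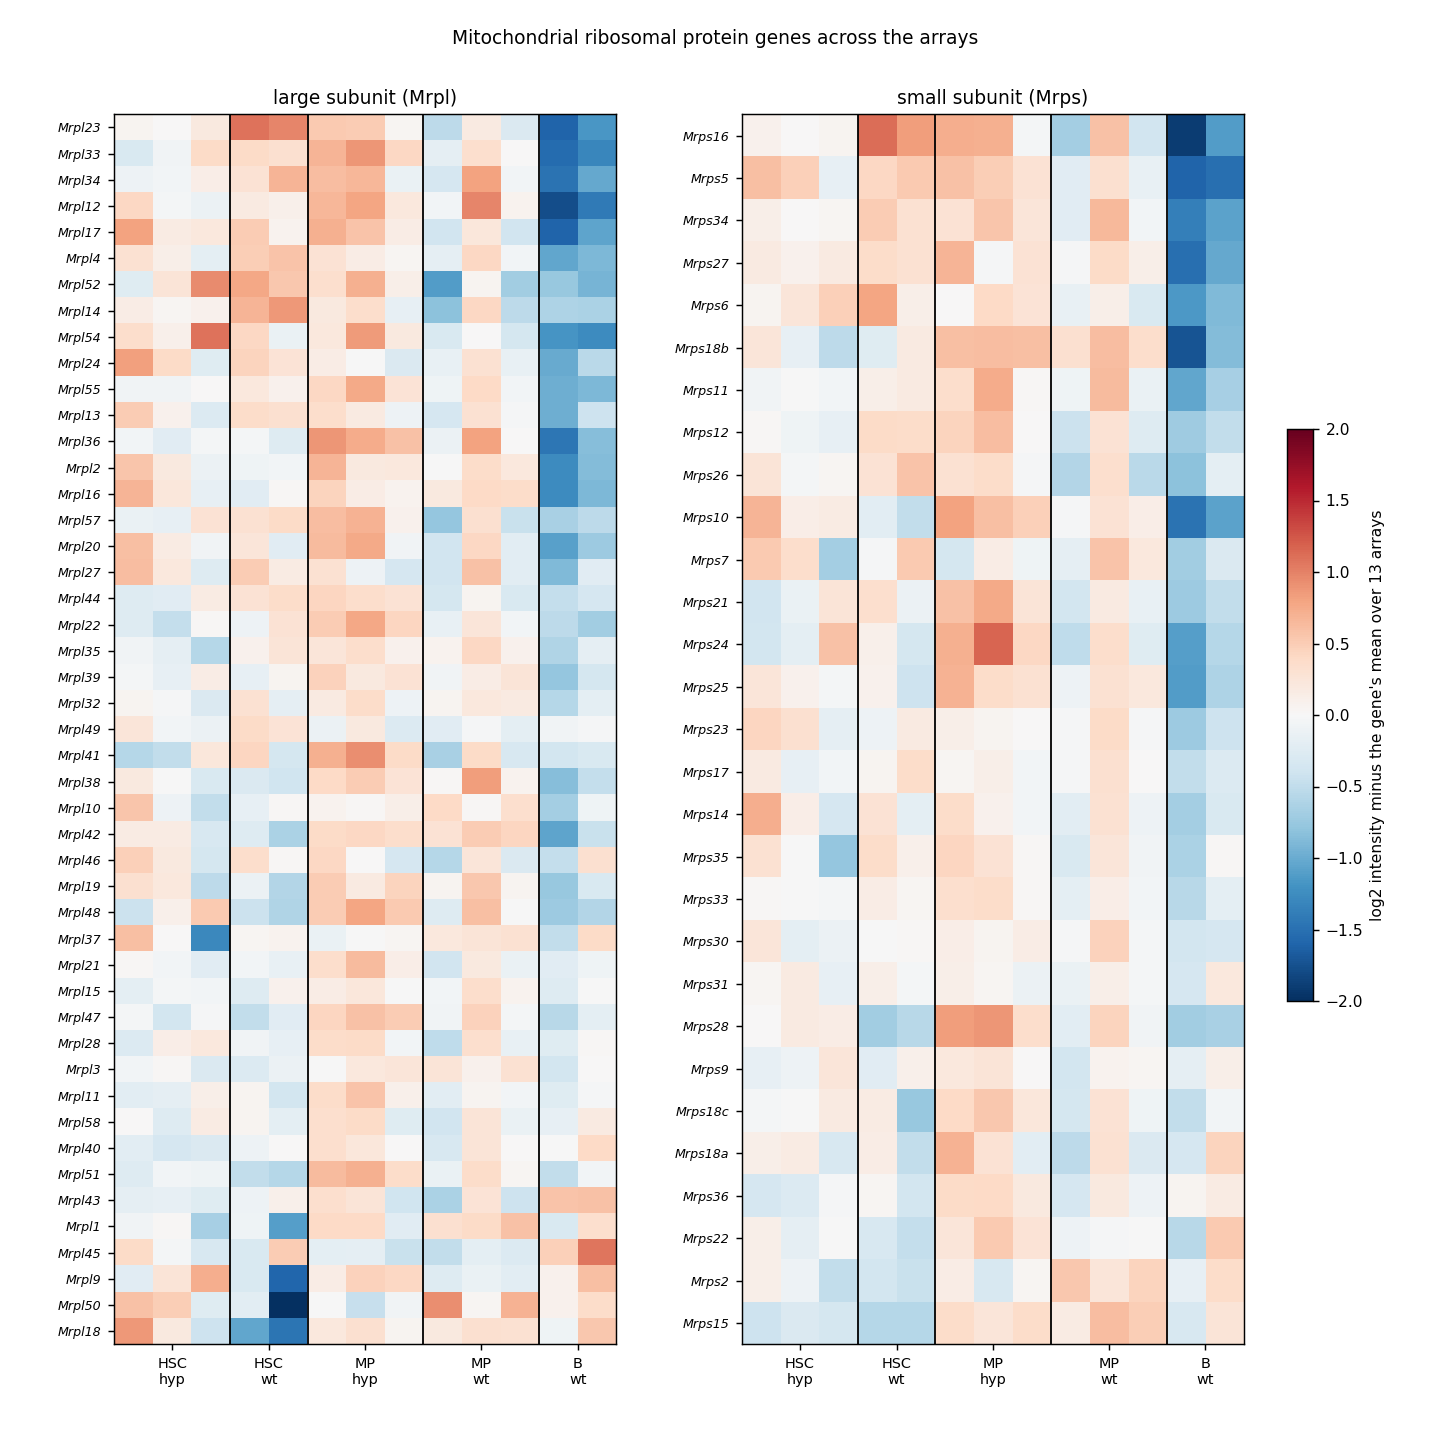
Log2 intensity of each member minus its mean over the 13 arrays (colour), with arrays in columns by group and genes ordered by their difference between B progenitors and HSC. The B progenitor columns are blue in the upper part of both panels and near white or red at the foot, where Mrpl43 and Mrpl45 are red on both arrays.

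By subunit, 19 of 47 Mrpl genes were lower and 3 higher in B progenitors than in wildtype HSC (median -0.38), and 12 of 29 Mrps genes were lower and 0 higher by limma's adjusted p (median -0.62; 14 lower and 1 higher at an unadjusted p under 0.05). Against MP 16 Mrpl genes were lower and 2 higher (-0.54), and 11 Mrps genes lower and 0 higher (-0.49; 14 and 0 at an unadjusted p under 0.05). Of all genes tested 30.2% were lower against HSC and 24.7% against MP. With centring 8 Mrpl genes were higher and 7 lower against HSC (median 0.09), and 4 higher and 10 lower against MP (-0.13). Of the Mrps genes 6 were then lower and 4 higher against HSC (-0.15), and 6 lower against MP (-0.08). Of all genes tested 26.3% were higher and 19.5% lower against HSC with centring, and 24.2% and 15.9% against MP. By origin, with Mrps30 and Mrps18a counted in the large subunit, 15 of 29 large subunit genes with a bacterial counterpart were lower than in HSC (median -0.90), and 4 of 20 particular to mitochondria (median -0.29). In the small subunit 8 of 17 with a bacterial counterpart were lower (-0.71), and 4 of 10 particular to mitochondria (-0.58). The difference between these classes was not tested.

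Mrps16, a small subunit protein known from an inherited defect of the respiratory chain, had the widest range of all members. It measured 7.78 and 8.57 in B progenitors, 10.80 and 10.51 in wildtype HSC, and 8.997, 10.26 and 9.29 in wildtype MP. Both B progenitor arrays lay below all others, and both wildtype HSC arrays above all others. Its log2 difference was -2.48 against HSC (SE 0.39, adjusted p = 0.000145), a 5.59-fold lower level, and -1.34 against MP (SE 0.36, adjusted p = 0.00877). Its hypomorph HSC arrays, at 9.77, 9.69 and 9.73, lay below the wildtype ones, with a difference of -0.93 that was not called (adjusted p = 0.113).

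Mrpl23 followed a similar order. It measured 8.42 and 8.85 in B progenitors, below every other array, and was highest in wildtype HSC. The difference was -2.41 against HSC (SE 0.27, adjusted p = 7e-06) and -1.17 against MP (SE 0.25, adjusted p = 0.00183). Over the 5 groups its means fell from 11.04 in wildtype HSC through 10.38 in hypomorph MP, 10.10 in hypomorph HSC and 9.81 in wildtype MP to 8.63 in B progenitors. Of the neighbours in this order, hypomorph MP and hypomorph HSC were not called apart (0.27, limma adjusted p = 0.54). Wildtype HSC and hypomorph MP were not compared, nor were hypomorph HSC and wildtype MP. The genotypes in MP were not called apart either (0.57, adjusted p = 0.271).

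Mrpl12, a protein of the stalk that calls in translation factors, also known to bind the mitochondrial RNA polymerase, was called only in the comparisons of B progenitors. It measured 8.08 and 8.45 there, against 9.74 to 10.84 on the other 11 arrays. Its difference was -1.73 against HSC (SE 0.33, adjusted p = 0.000744) and -1.93 against MP (SE 0.30, adjusted p = 0.000198). Mrps5, a small subunit protein of bacterial descent, measured 6.62 and 6.70 in B progenitors and 7.98 to 8.82 elsewhere. Its difference was -2.02 against HSC (SE 0.27, adjusted p = 4.26e-05) on its brightest probe set, while its 4 further probe sets gave only -0.23 to -0.50. The mean of its probe sets gave -0.74, still called. Mrpl33, a small protein of the large subunit, measured 8.02 and 8.24 in B progenitors and 9.24 to 10.43 elsewhere. Its difference was -1.77 against HSC (SE 0.27, adjusted p = 0.000109) and -1.48 against MP (SE 0.25, adjusted p = 0.000301) on the brighter of its 2 probe sets, the other being too dim to be tested. The mean of both gave -0.77 in each comparison, still called. Mrps27, a small subunit protein found only in mitochondria, measured 6.02 and 6.50 in B progenitors and 7.51 to 8.22 elsewhere, a difference of -1.43 against MP (SE 0.24, adjusted p = 0.000287). Each of these genes separated both B progenitor arrays from all other 11.

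Few members went the other way. Mrpl43 measured 10.42 and 10.44 in B progenitors, above the 9.22 to 10.18 of all other arrays, and was higher than in MP by 0.84 (SE 0.28, adjusted p = 0.0289). It is the single member with both B progenitor arrays above all others. The call was lost in 4 of 5 cases when 1 array was left out (adjusted p from 0.09 to 0.116). Mrpl45, which lies near the tunnel exit and ties the ribosome to the inner membrane, was higher than in MP by 1.09 (SE 0.28, adjusted p = 0.00763), with 8.54 and 9.14 against 7.58, 7.88 and 7.79. Without B progenitor array 2 it was 0.79 (adjusted p = 0.0975). Against HSC, Mrpl18 (1.47, SE 0.34), Mrpl50 (1.43, SE 0.50) and Mrpl9 (1.29, SE 0.38) were higher. These are the members that were also low in wildtype HSC, and wildtype HSC array 2 was low in each: without it Mrpl50 was 0.43 (adjusted p = 0.452) and Mrpl9 0.65 (adjusted p = 0.18).

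Probe sets of the same gene did not always move alike. Of the 34 members called between B progenitors and HSC, 12 had a further tested probe set, 5 had a further one with the opposite sign, and in 3 of these it was called too. Mrpl50 was higher by 1.43 on its brightest probe set and lower on the other, with -1.91 against HSC and -2.61 against MP. Mrpl34, another small protein of bacterial descent, was lower by 1.74 on its brightest probe set (SE 0.36) and higher by 1.34 on the other. With the mean of its probe sets Mrpl34 was at -0.20 (adjusted p = 0.619). The direction of both genes in B progenitors therefore differs between their probe sets. Mrpl12, Mrpl18, Mrpl23, Mrps16, Mrps18b, Mrps27 and Mrpl43 have a single probe set each, so this check could not be made for them.

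**Figure D5:**
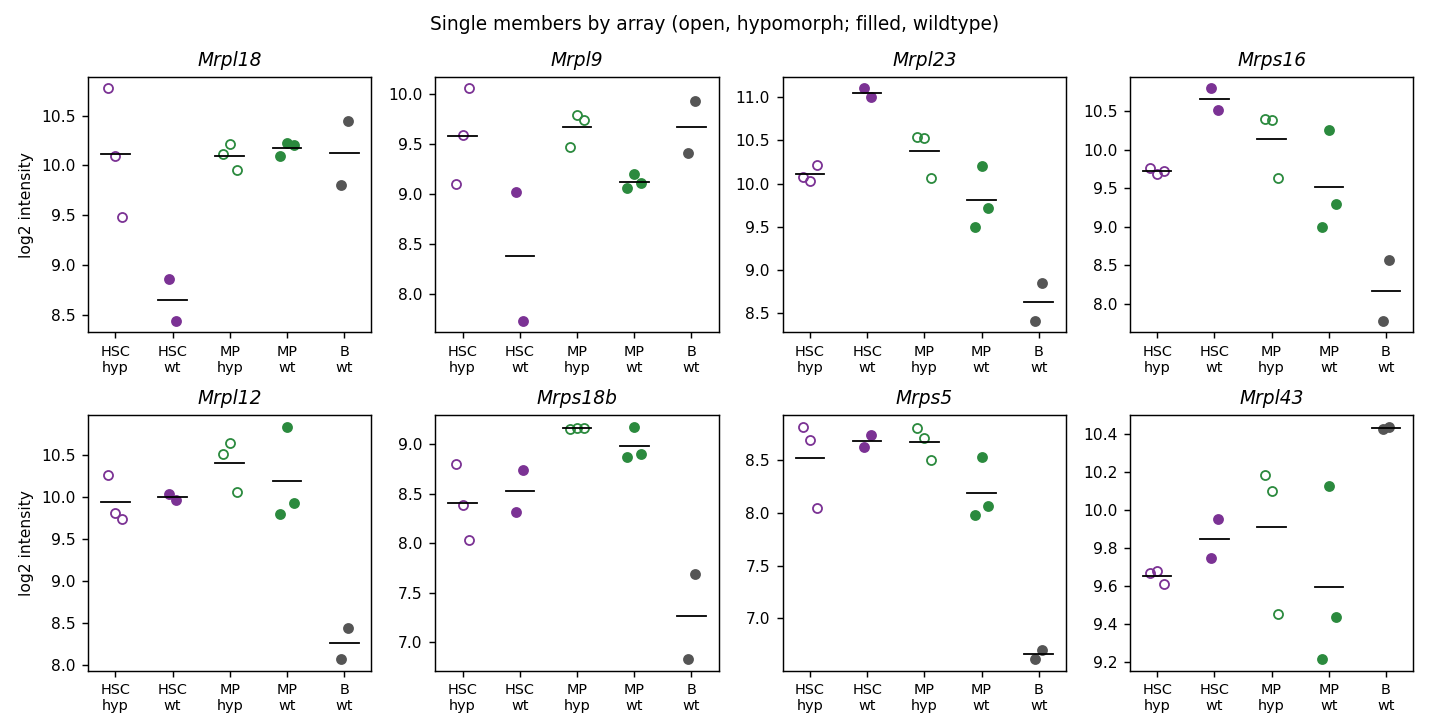
Log2 intensity (y axis, its own range in each panel) of 8 members on each array by group (x axis; hyp, hypomorph; wt, wildtype); open circles are hypomorph arrays, filled circles wildtype arrays and lines group means. Mrpl18 was low in wildtype HSC alone, Mrpl23 and Mrps16 were highest there, and Mrpl12, Mrps18b and Mrps5 were low in B progenitors alone.

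The paralogs Mrps18a, Mrps18b and Mrps18c, 3 descendants of a single bacterial protein that sit at different places in the particle, were compared in B progenitors and between the genotypes in MP. Mrps18b was lower in B progenitors, at 6.83 and 7.69 against 8.03 to 9.18 on all other arrays. Its difference was -1.72 against MP (SE 0.28, adjusted p = 0.000237) and -1.27 against HSC (SE 0.30, adjusted p = 0.00365). The latter was lost in 1 of 4 cases when an array was left out (adjusted p = 0.0563). Mrps18a was called in none of the 7 comparisons, with 0.23 against HSC (adjusted p = 0.655) and 0.22 against MP (0.662). Mrps18c was also called in none, with 0.03 against HSC (0.943) and -0.22 against MP (0.587). In hypomorph MP all 3 averaged above wildtype, by 0.43 for Mrps18a, 0.18 for Mrps18b and 0.43 for Mrps18c, none of them called. The difference between the paralogs was not tested.

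Of the 76 members 31 were called in no comparison. The 3 with the narrowest range of group means were Mrps31, with 0.10 between its highest and lowest group, Mrps9 and Mrpl58, each with 0.24. Mrps31 ran from 7.96 to 8.51 over the 13 arrays, so its groups differed by less than the spread within them. Mrpl58, which frees stalled chains from the ribosome, ran from 8.90 to 9.66. The median range of the group means was 1.03 for the members and 1.07 for all genes tested.

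The genes around the mitochondrial ribosome were followed in lists of known function. Of 4 ribosomal protein genes with other symbols, Gadd45gip1 was lower in B progenitors than in HSC (-2.25, SE 0.33, adjusted p = 8.81e-05) and than in MP (-1.79), Chchd1 was lower than in MP (-0.78), and Ptcd3 was higher in wildtype MP than in HSC (0.83). With the mean of their probe sets Gadd45gip1 gave -0.85 against MP, still called, and Ptcd3 0.35 (adjusted p = 0.152), and without B progenitor array 1 Chchd1 gave -0.44 (0.311). Of 15 mitochondrial aminoacyl-tRNA synthetases, which load the tRNAs, 1 rose in hypomorph HSC: Yars2, at 7.08, 8.36 and 8.69 against 6.96 and 5.06 (2.04, SE 0.52, adjusted p = 0.0236). The call of Yars2 was lost without wildtype HSC array 2 (1.09, adjusted p = 0.334), without hypomorph HSC array 2 (0.082) or array 3 (0.058), with the replicate block (0.0548) and with only the arrays compared (0.176). In B progenitors 4 (26.7%, where 30.2% of all genes tested were lower) were lower and 2 higher than in HSC, with Cars2 (-2.26) and Ears2 (-2.20) the lowest. The mean of their probe sets gave -1.28 and -0.74, still called. Of 13 translation factors 0 were called between the genotypes in HSC or MP by limma's adjusted p (0 and 2 at an unadjusted p under 0.05). In B progenitors 3 (23.1%, against 30.2% of all genes tested) were lower than in HSC, and 5 (38.5%, against 24.7%) lower than in MP. The median difference from MP was -0.84, and that of all genes tested -0.13. Among those lower than in HSC were Mrrf, which recycles ribosomes (-1.44), and Slirp, which steadies mitochondrial messengers (-1.41). With centring Slirp was at -0.95 (adjusted p = 0.0713), and its call was lost in 2 of 4 cases with 1 array left out.

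Of 22 genes of ribosome assembly and rRNA modification, Mterf3 rose in hypomorph HSC (1.16, SE 0.32, adjusted p = 0.0336). Its call was lost without wildtype HSC array 2 (0.67, adjusted p = 0.381), without hypomorph HSC array 2 (0.117) or array 3 (0.0588), and under 4 of 7 other alternatives (0.0537 to 0.165). In B progenitors 7 (31.8%) were lower and 1 higher than in HSC, where 30.2% of all genes tested were lower and 14.8% higher. Rbfa, which matures the small subunit, was lower there than in HSC (-1.78) and MP (-1.80), and Mrm3, which methylates the large rRNA, likewise (-1.61 and -1.52). Of 13 genes of mitochondrial DNA replication and transcription, Ssbp1, which coats single-stranded mitochondrial DNA, rose in hypomorph HSC (1.55, SE 0.42, adjusted p = 0.0316). Its wildtype array 2 stood at 10.02 and every other array at 12.01 or more. Without that array the difference was 0.55 (adjusted p = 0.407), and with the mean of the probe sets 0.20 (0.518). The call was also lost without hypomorph HSC array 2 (0.0966) or array 3 (0.0675), with the replicate block (0.0709) and with only the arrays compared (0.221). In B progenitors 4 of these 13 (30.8%, near the 30.2% of all genes tested) were lower and 1 higher than in HSC. Top1mt was at -1.69 and Twnk at -1.46.

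Of 9 regulators of mitochondrial biogenesis, 3 were lower and 3 higher in B progenitors than in HSC. Of all genes tested 30.2% were lower and 14.8% higher. Against MP 4 were lower, where 24.7% of all genes tested were. Mycn and Myc had the largest changes in both comparisons. Mycn measured 10.03 and 10.00 in wildtype HSC, 8.00 to 8.68 in wildtype MP and 4.83 and 4.95 in B progenitors, a difference from HSC of -5.13 (SE 0.49, adjusted p = 1.66e-06). The mean of its probe sets gave -1.50, still called. Myc measured 9.02 to 10.38 on the HSC and MP arrays and 7.08 and 6.72 in B progenitors, a difference from MP of -3.36 (SE 0.31, adjusted p = 1.2e-06). Gabpa, the ETS factor named above, was higher in wildtype MP than in HSC (1.74) and in B progenitors than in HSC (1.74). Its genotype effect differed between HSC and MP (HSC minus MP 1.77, limma adjusted p = 0.0363). That call was lost in 9 of 11 cases with 1 array left out and under 4 of 7 other alternatives.

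Cytosolic ribosomal protein genes gave a comparison by function. Of 44 tested, 26 were lower and 1 higher in B progenitors than in HSC (median -0.71), and 17 lower and 1 higher than in MP (median -0.50). These were 59.1% and 38.6% of the list lower, where 30.2% and 24.7% of all genes tested were lower. With centring 4 were higher and 13 lower against HSC (median -0.24), and 2 higher and 7 lower against MP (-0.09). With the same centring 26.3% of all genes tested were higher and 19.5% lower against HSC, and 24.2% and 15.9% against MP. Rps15 (-2.58) and Rps9 (-2.20) were among those lower than in HSC, while Rpl27a was higher by 3.45 (1.82 with the mean of its probe sets). In MP, 32 of the 44 cytosolic genes (72.7%) were higher in the hypomorph on average, beside 77.6% of the mitochondrial members and 47.8% of all genes tested. The cytosolic median was 0.10, with Rpl39l called (2.48, SE 0.42, adjusted p = 0.0123), a call lost without wildtype MP array 1 (2.41, adjusted p = 0.073). Of 14 genes of DNA replication and division, 8 rose in hypomorph HSC (median 1.09), where 5.37% of all genes tested rose. In B progenitors 9 were higher than in HSC (median 1.69), where 14.8% of all genes tested were. In wildtype MP 11 were higher than in wildtype HSC, where 13.8% of all genes tested were. Between the genotypes in MP 0 were called by limma's adjusted p (1 lower at an unadjusted p under 0.05). Mcm4, of the replicative helicase, rose by 2.64 in hypomorph HSC (1.71, adjusted p = 0.0722, without wildtype HSC array 2, and adjusted p = 0.109 with only the arrays compared), and Bub1, of the spindle checkpoint, by 2.74. Whether the lists differ from one another was not tested.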

How the data were processed

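RNA of sorted bone marrow cells was hybridised to Affymetrix expression arrays of 45101 probe sets. The authors deposited log2 intensities normalized by RMA, per the submitters' processing notes. The log base is inferred from RMA's usual output and the range of the values, 1.92 to 15.0. The RMA version and genome build are not given in the sources used here. Of 24 deposited columns, 13 hold all arrays normalized together and were used; 11 hold the HSC and MP arrays normalized again and served as an alternative. No detection calls were used.

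Of the probe sets 34958 carried 1 gene symbol in GEO's platform annotation, 932 several and 9211 none; only the first were used. Each of the resulting 18194 genes was represented by its brightest probe set. Genes with at least 2 arrays at or above 4.64, the median of all values, were tested (12745). The 76 members had 156 probe sets, and 34 members had 1 each. Mrpl30 and Mrpl53, found only on probe sets shared with another gene, were left out.

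A limma (3.58.1, R 4.3.3) model of all 5 groups with 8 residual degrees of freedom gave 7 comparisons, each adjusted by Benjamini and Hochberg over all genes tested. The calling was tested on simulated data. Members, lists and tests were chosen with earlier results of these data known. Named were Dnmt1; in each comparison the 5 members with the largest called rise and the 5 with the largest called fall, or, in a comparison without calls, the 3 of lowest p; the 3 members with the widest and the 3 with the narrowest range of group means; Mrps18a, Mrps18b and Mrps18c; and up to 2 called genes of each list with the largest change. Other members that are named were chosen after their values were seen. The alternatives left out each array in turn, fitted only the arrays compared, added a replicate block, centred arrays on their medians, averaged a gene's probe sets, tested every probe set singly, dropped the filter, raised it to the 75th percentile (7.10), or took the second normalization. Mean ± SD, SE and the medians of lists are on the log2 scale.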

Additional observations from a re-analysis of the deposited data

Results flagged for a closer look

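The genotype effect differed between HSC and MP for 2 members by the test of the difference itself. Mrpl18 had a difference of the effects (HSC minus MP) of 1.54 on the log2 scale (SE 0.42, limma adjusted p = 0.0489), with an effect of 1.46 in HSC. Mrpl23 had a difference of -1.51 (SE 0.33, limma adjusted p = 0.0199), with effects of -0.94 in HSC and 0.57 in MP. The call of Mrpl18 was lost in 9 of 11 cases with 1 array left out and under 3 of 8 other alternatives. That of Mrpl23 was lost in 6 of 11 cases and under 0 of 8. All 3 hypomorph HSC arrays lay above both wildtype arrays for Mrpl18, as for 13.2% of all genes tested. They lay below both for Mrpl23, as for 22.4%. No group had 4 or more arrays, so single arrays were not tested for standing apart.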

How the results depend on the processing

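Deviations from the group mean of same-numbered arrays of different groups correlated from -0.313 to 0.301 over 23 pairs (median -0.049). Those of arrays with other numbers correlated from -0.383 to 0.426 over 44 pairs (median 0.034). With 2 or 3 arrays a group such deviations depend on each other, so this cannot settle whether the replicate numbers pair the arrays. With the replicate number as a block, 1 member was called between the genotypes in HSC, 1 for the difference of the effects and 2 between hypomorph MP and HSC. Only the arrays compared gave 0 called members between the genotypes in HSC, and centring gave 5. Centring gave 7 between hypomorph MP and HSC, and medians of -0.0706 (B progenitors against HSC) and -0.084 (against MP). Testing every probe set singly, an alternative chosen after seeing the data, left 1 member for the difference of the effects. Leaving out each array in turn gave 0 to 3 called members between the genotypes in HSC, 0 to 1 in MP (median 0.12 to 0.44), 0 to 10 for the difference of the effects, 4 to 15 between wildtype MP and HSC, 0 to 10 between hypomorph MP and HSC, 19 to 31 between B progenitors and HSC and 15 to 28 between B progenitors and MP (median -0.73 to -0.36). Mrpl50 turned from 1.43 to -0.24 (adjusted p = 0.575) between B progenitors and HSC with the mean of its probe sets, and Mrps18c to 0.19 (0.626) between B progenitors and MP with centring. Of the paralogs' values that turned sign, none called as reported, Mrps18a ran from -0.16 to 0.48 (genotypes in HSC), -0.59 to 0.0582 (difference of the effects), -0.32 to 0.33 (wildtype MP against HSC), -0.16 to 0.62 and -0.17 to 0.61 (B progenitors against HSC and MP). Mrps18b ran from -0.34 to 0.0895 (genotypes in HSC). Mrps18c ran from -0.12 to 0.81, -0.55 to 0.37, -0.21 to 0.72, -0.43 to 0.50 and -0.44 to 0.0009 in the same order as Mrps18a. Over all named genes with an array left out, 490 values kept both their sign and their status as called or not called. Of the rest 145 lost a call, 1 gained one and 16 changed sign. Under the other alternatives 766 kept both, 62 lost a call, 2 gained one and 2 changed sign. Values that were not called at the outset are among those kept, so these are not shares of calls kept. Where a call was lost the cause was not tested. Detection calls were not used here, so no dim gene is said to be above background.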

Other observations

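RefSeq places Mrpl4, a large subunit gene of bacterial descent, on the same chromosome stretch as Dnmt1, with S1pr2 between them. Mrpl4 measured 10.15, 9.97 and 9.65 in hypomorph HSC and 10.34 and 10.42 in wildtype HSC, a log2 difference of -0.46 (SE 0.22, limma adjusted p = 0.212). In MP it measured 10.14, 10.00 and 9.90 against 9.66, 10.26 and 9.80, a difference of 0.10 (SE 0.20, adjusted p = 0.83). The HSC groups did not overlap, the MP groups did, and neither difference was called. Of all genes tested 22.4% had all hypomorph HSC arrays below both wildtype ones.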
